A study of Rattus norvegicus with 16 samples.

Results

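The comparison described here set 4 arrays of frontal cortex from old rats against 4 arrays of frontal cortex from young rats, chosen by the tissue and age given in the sample labels, 8 of the 16 arrays in the series. The other 8 arrays hold hippocampus of young and old rats and entered the fit to share its estimate of spread. All rats were males of LOU/C/Jall, an inbred strain used as a model of healthy ageing, and no group carried a mutation or received a treatment. The old rats were 26 months old, and the young rats were 5 months old in the sample labels but 3 months old in the series design text. Each array held Cy3-labelled total RNA of 1 dissected sample, measured on a one-colour Agilent rat array. Arrays go by the letter codes in their titles: the young ones are Y, Z, AA and AB, and the old ones are AF, AG, AH and AI. Whether a code marks 1 animal is not given, and the p-values therefore measure only the spread between these arrays.

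The frontal cortex is a layered tissue of glutamatergic projection neurons, inhibitory interneurons, astrocytes, oligodendrocytes and microglia, covered by the meninges and lying over the striatum. Ageing of rodent cortex is known for higher levels of complement and glial activation genes and for lower levels of some genes induced by neuronal activity. Complement is a cascade of plasma and tissue proteins in which C3 is the central component, and in the brain its parts are made mainly by microglia and astrocytes. Immediate-early genes are switched on within minutes of synaptic activity through the transcription factors CREB and SRF.

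Marker genes of neighbouring tissues differed between arrays of the same age, so these levels are given before the gene results. The mean level of a marker list is the mean over its tested genes of the log2 signal minus each gene's own mean over the 8 cortex arrays. For 17 striatal medium spiny neuron genes it was -0.72 and -0.71 on young Y and Z, 0.44 and 0.54 on young AA and AB, and 1.07 on old AG, while the other 3 old arrays lay between -0.29 and -0.11. Drd2, the dopamine receptor of striatal indirect pathway neurons, showed the same order, with log2 signals of 7.67, 7.78, 10.16 and 10.39 on young Y, Z, AA and AB and 8.83, 11.10, 8.91 and 9.31 on old AF, AG, AH and AI. The groups overlapped, and 2 of the other defining markers, Drd1 and Gpr6, were below the intensity minimum in cortex. Summed on the linear scale, the striatal list ranged from 15700 to 33800 signal units on the young arrays and from 21100 to 52300 on the old arrays.

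For 20 meningeal fibroblast genes the list mean was 0.82 and 1.17 on young Y and Z, -0.18 and 0.02 on young AA and AB, and -0.93, -0.56, -0.36 and 0.01 on old AF, AG, AH and AI. Ogn, a small proteoglycan of the meninges, had log2 signals of 9.99, 10.43, 8.78 and 9.14 on the young arrays in that order and 7.77, 7.62, 8.56 and 8.88 on the old arrays. All 20 genes had a lower mean in old cortex, with a median difference of -0.87 log2, and 0 of them passed the test. Without young Y and Z that median was -0.39. The list summed to between 40900 and 106000 signal units on the young arrays and between 21900 and 49400 on the old arrays, and Aldh1a2 was its only defining marker under the intensity minimum. Mural cell genes were likewise highest on young Y and Z, at 0.34 and 0.38. Fewer cells of a type in the dissected piece and less RNA per cell cannot be told apart in these bulk samples.

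Other lists set single arrays apart. Olfactory bulb neuron genes stood at 0.92 on young AA, with the other 7 arrays between -0.38 and 0.09. Of its defining markers, Cdhr1 and Doc2g were highest on young AA, at 12.86 and 7.93. Th read 8.44 there against 8.42 on old AF, and Tbx21 was lowest there, at 13.18 against 13.24 to 13.72. The basal forebrain cholinergic list, with 3 tested genes, was also highest on young AA, at 0.75. Erythrocyte genes stood at 1.26 on old AF and -0.94 on old AG, with the other 6 between -0.18 and 0.11. The markers of the labelled tissue were present: Slc17a7, the vesicular glutamate transporter of cortical projection neurons, had signals of 8.88, 8.99, 8.76 and 9.02 on the young arrays and 8.24, 8.12, 8.54 and 8.91 on the old arrays, and Neurod6 and Fezf2 were also above the minimum. Tbr1 was below it, at 6.15 to 6.55. Of 4 defining hippocampal markers, Prox1 and Spink8 were below it, while Fibcd1 (9.47 or more on each array) and Wfs1 (8.11 to 9.59) were above it. Of 6 defining choroid plexus markers, Kl, Folr1, Otx2 and Slc4a5 were below it, while Ttr lay at 9.31 to 11.91 and Aqp1 at 5.99 to 8.31. Over the tested genes, arrays of one age correlated at 0.982 to 0.994 in young and 0.978 to 0.993 in old cortex. The first principal component of the 8 arrays held 37.4% of the variance and placed the young arrays between -15.9 and -9.59, old AF and AG at 21.7 and 26.7, and old AH and AI at 1.32 and 0.09.

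**Figure D1:**
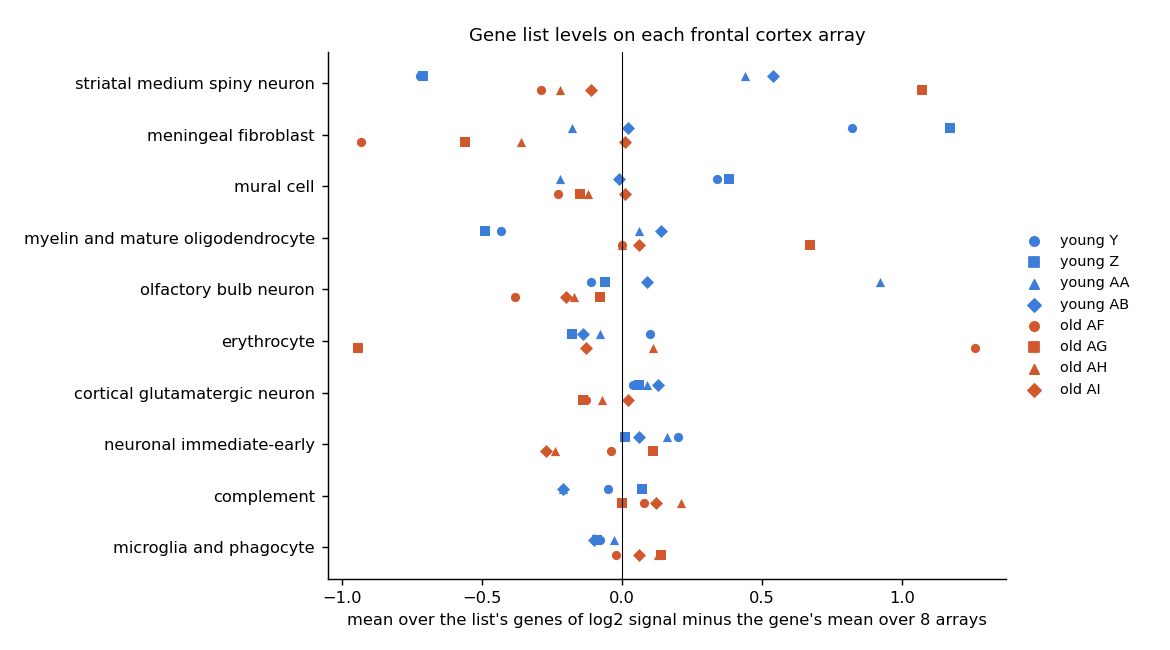
Mean log2 level of 10 gene lists on each of the 8 frontal cortex arrays, relative to each gene's mean over those arrays; blue symbols are young and orange symbols are old arrays. Striatal genes were highest on old AG (1.07), meningeal genes on young Z (1.17) and Y (0.82), olfactory bulb genes on young AA (0.92) and erythrocyte genes on old AF (1.26).

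Of 10058 genes tested, 97 differed between old and young frontal cortex at an adjusted p under 0.05 with limma and Benjamini-Hochberg adjustment over all tested genes, 0.964% of them. A gene that passes is called here. The calls were of both directions: 56 genes, 0.557%, were higher in old cortex and 41, 0.408%, were lower. The rises ran from 1.3-fold to 2.38-fold and the falls from 1.27-fold to 3.03-fold. On the shifted scale the 4 old and the 4 young arrays did not overlap in 95 of the 97, the exceptions being Eif2b1 and Pnisr, whereas they did not overlap in 1288 of all tested genes, 12.8%. Over all tested genes the median difference was 0.0 log2 and 5046, or 50.2%, had a positive difference. With no adjustment 2234 genes had a p under 0.05, of which 1039 were higher and 1195 lower. In 55 of the 97 called genes, 56.7%, old AF and AG both lay farther from the young arrays than old AH and AI did, compared with 35.6% of all tested genes.

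**Figure D2:**
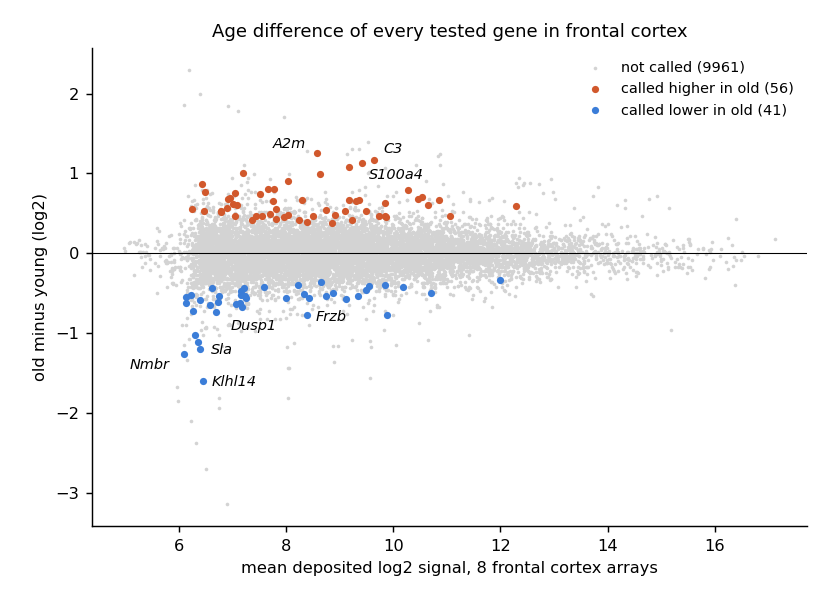
Difference between old and young frontal cortex (log2, vertical axis) against the mean deposited log2 signal (horizontal axis) for the 10058 tested genes. The 56 genes called higher (orange) include A2m, C3 and S100a4 at a difference above 1, and the falls of Klhl14, Nmbr and Sla lie among genes of low signal; grey points of larger difference were not called.

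The complement gene C3 and S100a4 were among the largest rises. C3 had log2 signals of 8.95, 8.86, 9.29 and 9.20 on young Y, Z, AA and AB and of 10.05, 10.45, 10.18 and 10.24 on old AF, AG, AH and AI. Every old array was above every young array, and the difference of 1.17 ± 0.14 log2 (SE, n = 4 per group), or 2.24-fold, had an adjusted p of 0.00489. The second C3 probe differed by 1.10. S100a4, a calcium-binding protein of motile cells such as leukocytes and fibroblasts, had signals of 8.78, 8.89, 8.92 and 8.86 on the young arrays and 10.20, 10.25, 9.80 and 9.67 on the old arrays. The young arrays spanned 0.14 log2 and lay below all old arrays, and the rise was 1.13 ± 0.15 log2 (2.19-fold, adjusted p 0.00515).

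The largest rise of all called genes was that of A2m, the protease inhibitor alpha-2-macroglobulin, an acute phase protein in the rat that brain astrocytes also make. Its signals were 7.62, 8.09, 8.04 and 8.06 on the young arrays and 9.67, 9.30, 9.15 and 8.65 on the old arrays. The groups did not overlap, young Y was the lowest array and old AF the highest, and the rise was 1.25 ± 0.22 log2 (2.38-fold, adjusted p 0.0198). Lsp1, an actin-binding protein of leukocytes, rose from between 8.76 and 8.97 on the young arrays to between 9.27 and 9.84 on the old arrays, a difference of 0.66 ± 0.12 (adjusted p 0.0237). Pla2g7, the secreted enzyme that inactivates platelet-activating factor, rose by 0.68 ± 0.10 log2 (adjusted p 0.00851), with young arrays at 10.08 to 10.24 and old arrays at 10.57 to 10.99.

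The medians of the complement and microglia lists were smaller than these rises, and single members went both ways. Of 18 genes tested in the complement list, 2 rose, C3 and A2m, 0 fell, and 12 were positive. The list median was 0.17 log2. A2m is a protease inhibitor and not a complement component, and it is also counted in the astrocyte list. The opsonin component C4a had a difference of 0.62 ± 0.23 (adjusted p 0.14), and Masp1, a protease of the lectin pathway, one of -0.55 ± 0.14 (adjusted p 0.0642). The defining members C1qa, C1qb and C1qc differed by 0.37, 0.1 and 0.2. Of 35 microglia and phagocyte genes, S100a4 and Lsp1 rose and 0 fell, and 23 were positive, with a median of 0.11. Gpnmb, a glycoprotein of activated phagocytes, had a difference of 0.45 ± 0.11 (adjusted p 0.0634), and Spp1 one of -0.9 ± 0.26 (adjusted p 0.0796). Of the defining members, Cx3cr1 differed by 1.1, with 12.35 on old AG and 11.18 on old AI against 10.24 and 10.13 on old AF and AH. Trem2, Tyrobp, Aif1 and Csf1r differed by 0.33, 0.27, 0.06 and -0.23. The summed complement signal overlapped between the ages, at 44100 to 45900 units on the young arrays and 40200 to 49400 on the old arrays, while the microglial sum ran from 27500 to 29000 units on the young arrays and from 30400 to 35300 on the old arrays. Without old AH the median of the complement list was 0.10 and that of the microglia list 0.04.

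Antigen presentation and interferon response genes gave no call. Of 18 MHC class I and immunoproteasome genes 13 were positive, with a median of 0.13, and of 26 interferon response genes 14 were positive, with a median of 0.03. Igtp, an interferon-induced GTPase, had signals of 12.16, 12.27, 11.74 and 11.83 on the young arrays and 12.83, 12.99, 12.83 and 12.84 on the old arrays. Its groups did not overlap, and the difference of 0.88 ± 0.27 had an adjusted p of 0.0919. The other Igtp probes differed by 0.62, -0.23, 0.01 and -0.13, and 3 of its 5 probes were above the intensity minimum. Cd74, the invariant chain of MHC class II, ran from 7.45 to 8.59 on the young arrays and from 7.73 to 9.11 on the old arrays, and its groups overlapped (0.36 ± 0.41, adjusted p 0.634).

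In astrocytes, Gfap, the intermediate filament that marks reactive astrocytes, had signals of 8.28, 8.35, 8.50 and 8.51 on the young arrays and 8.68, 9.44, 9.11 and 8.94 on the old arrays. Its groups did not overlap, but the difference of 0.64 ± 0.18 log2 did not pass (adjusted p 0.0808). Lcn2, a secreted protein of reactive astrocytes, differed by 0.94 ± 0.27 (adjusted p 0.0793) and Aspg by 0.43 ± 0.11 (adjusted p 0.0699). Of 22 astrocyte genes tested, A2m rose, 0 fell and 13 were positive, with a median of 0.03 log2. The defining members Aqp4, Aldh1l1, Slc1a2 and Slc1a3 differed by -0.24, 0.01, 0.24 and -0.3. Apoe, the main lipid carrier of astrocytes, differed by 0.02 ± 0.09 (adjusted p 0.902).

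Several of the other large rises belong to genes of varied function. Ttc4, a co-chaperone of HSP90, had a difference of 1.01 ± 0.20 (adjusted p 0.0251) on its brightest probe and -0.38 on its second probe. Old AF, at 8.50, stood above the other old arrays, which lay between 7.32 and 7.52. Npff, the precursor of the neuropeptide FF, rose by 0.80 ± 0.16 (adjusted p 0.0263) and was the 1 called gene of 21 interneuron genes, of which 6 were positive. Col16a1, a fibril-associated collagen, rose by 0.79 ± 0.15 (adjusted p 0.0198). It was the only call among 48 collagen and matrix genes, whose median was -0.13 log2.

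The 15 largest rises also held Pbld1 (1.08 ± 0.21), Heatr8 (0.99 ± 0.16), Birc7, an inhibitor of apoptosis (0.91 ± 0.15), the transcript named Lipogenin (0.86 ± 0.18) and Slc26a10 (0.80 ± 0.15). Sycp2l, known from the synaptonemal complex of germ cells, rose by 0.77 ± 0.14. The young means of Lipogenin and Sycp2l, 6.0 and 6.11, lay under the intensity minimum of 6.49. Sfxn2, a mitochondrial carrier protein, rose by 0.75 ± 0.12 (adjusted p 0.0112), and its young arrays reached 6.89 where the lowest old array stood at 7.35. Tmprss7, a serine protease, rose by 0.74 ± 0.17 (adjusted p 0.0495) and Usp54 by 0.70 ± 0.13 (adjusted p 0.0198). Of lipid genes, Srebf1, a transcription factor that drives fatty acid synthesis, rose by 0.45 ± 0.09 (adjusted p 0.0341) with young arrays at 9.57 to 9.73 and old arrays at 9.86 to 10.21. It was the only call among 35 cholesterol and lipid synthesis genes, 18 of which were positive.

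**Figure D3:**
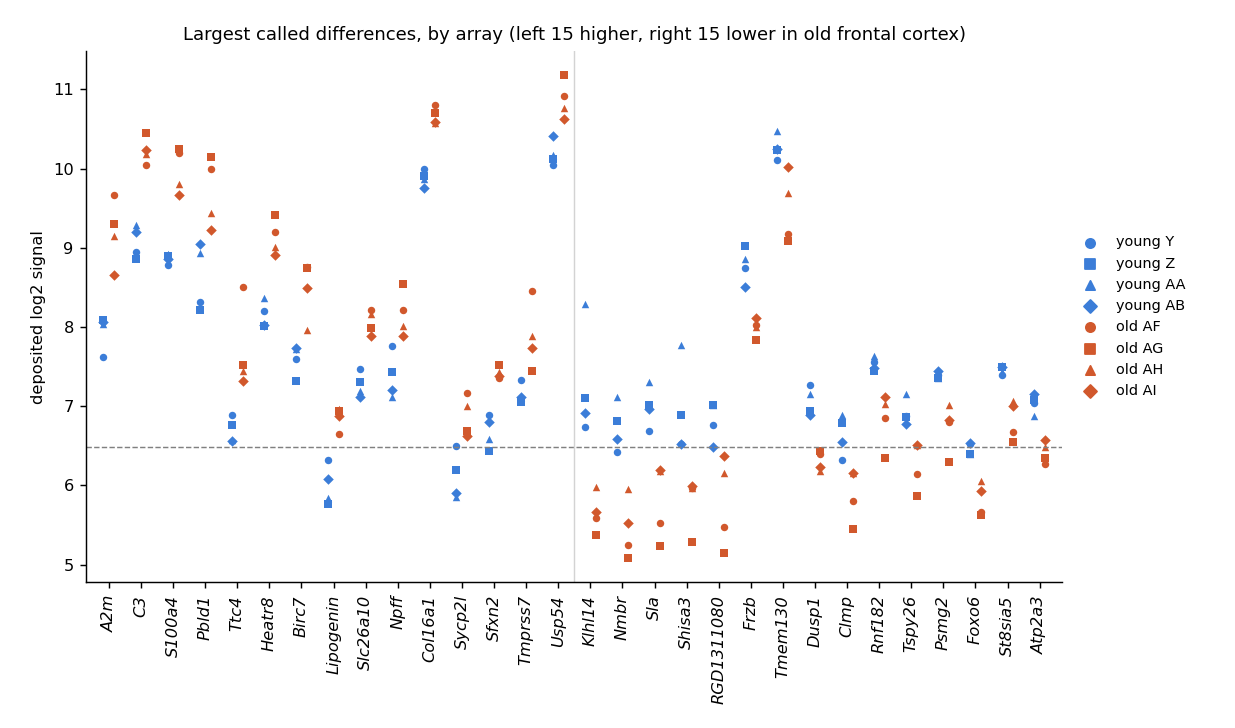
Deposited log2 signal of the 15 largest rises (left) and 15 largest falls (right) among the called genes, with 1 symbol per array, young in blue and old in orange; the dashed line is the intensity minimum of 6.49. Old and young arrays are separate for each gene shown, and for many of the falls, such as Nmbr and Sla, the old arrays lie below the minimum.

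The following rises were singled out after their values were seen. Rtel1, a DNA helicase that maintains telomeres, was called at 0.47 ± 0.10 log2 (adjusted p 0.0345), Mms22l, a protein of replication fork repair, at 0.68 ± 0.12 (adjusted p 0.0198) and Tdp2, which removes trapped topoisomerase 2 from DNA ends, at 0.54 ± 0.11 (adjusted p 0.0299). Mms22l lay between 6.33 and 6.82 on the young arrays and between 7.0 and 7.46 on the old arrays. The dimmer probes of Rtel1 differed by -0.02 and 0.09 and those of Mms22l by 0.03 and 0.15, all 4 of them under the intensity minimum, whereas the second probe of Tdp2 differed by 0.50. Of proteins of the centrosome, Cep152 rose by 0.46 ± 0.09 and Nin, or ninein, by 0.47 ± 0.09. Cdk12, a kinase of transcription elongation, rose by 0.53 ± 0.10 on its brightest probe. Of its 11 other probes 1 differed by 0.52, and the other 10, all under the minimum, by -0.31 to 0.09. Cdk10 rose by 0.46 ± 0.10. Prodh, the first enzyme of proline breakdown, rose by 0.60 ± 0.13 on its brightest probe and differed by -0.21 on its second. Pnpla7, a lysophospholipase, rose by 0.47 ± 0.08, Lgi3, a secreted neuronal protein, by 0.59 ± 0.12, and Atg16l2, a relative of an autophagy protein, by 0.41 ± 0.09.

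The largest falls were in genes of low signal. Klhl14, a BTB and Kelch domain protein, had signals of 6.74, 7.10, 8.29 and 6.91 on young Y, Z, AA and AB and of 5.59, 5.37, 5.98 and 5.66 on the old arrays. All old arrays were below all young arrays, and young AA stood highest. The fall was 3.03-fold (-1.60 ± 0.29 log2, adjusted p 0.0198), and without young AA it was -1.26 with an adjusted p of 0.0542. The array carries 12 Klhl14 probes, all of which had a negative difference.

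Nmbr, the receptor of the peptide neuromedin B, had signals of 6.42, 6.81, 7.12 and 6.58 on the young arrays and 5.25, 5.08, 5.95 and 5.52 on the old arrays. The groups were apart by 0.47 log2, and the fall was 2.42-fold (-1.27 ± 0.18 log2, adjusted p 0.00692). Its ligand gene Nmb and Cdhr1, a cadherin of olfactory bulb projection neurons, both in the olfactory bulb list, were highest on young AA. Nmb stood at 9.11 there against 7.37 to 7.59 on the other young arrays and 6.59 to 7.21 on the old arrays, a difference of -0.97 ± 0.31 (adjusted p 0.0964). Without young AA, Nmb differed by -0.57 and Nmbr by -1.14, the latter with an adjusted p of 0.0309.

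Sla, an adaptor that dampens antigen receptor signalling and was listed here with cortical glutamatergic neuron genes, had signals of 6.69, 7.01, 7.31 and 6.96 on the young arrays and 5.52, 5.23, 6.18 and 6.20 on the old arrays. Old AF and AG were lowest, the groups did not overlap, and the fall was 2.30-fold (-1.2 ± 0.19 log2, adjusted p 0.0126). Of 26 cortical glutamatergic neuron genes, Sla and the pseudokinase gene Trib2 (-0.54 ± 0.11, adjusted p 0.0371) fell and 0 rose. Among the 26, 6 were positive and the median was -0.13 log2. Slc17a7 differed by -0.45 ± 0.13 (adjusted p 0.0893).

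The Wnt and BMP signalling list held 2 falls, both of secreted or membrane antagonists. Frzb, a secreted antagonist of Wnt, fell 1.71-fold (-0.78 ± 0.14 log2, adjusted p 0.0198) from 8.74, 9.02, 8.86 and 8.51 on the young arrays to 8.02, 7.83, 8.0 and 8.11 on the old arrays. The highest old array lay below the lowest young array, and its second probe differed by -0.79. Shisa3, which keeps Wnt and FGF receptors from the cell surface, fell by 1.11 ± 0.22 on the log2 scale (adjusted p 0.0303), and without young AA the difference was -0.83 with an adjusted p of 0.0614. Frzb and Shisa3 were the calls among 43 Wnt and BMP signalling genes, of which 24 were positive, with a median of 0.01.

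Other falls were single members of their lists or belonged to none. Foxo6, a forkhead factor of the insulin pathway, fell by 0.63 ± 0.12 (adjusted p 0.0251), the only call among 29 insulin, IGF and Foxo genes, and Igf1 differed by -0.19 ± 0.13 (adjusted p 0.408). St8sia5, a sialyltransferase that builds complex gangliosides, had signals of 7.39, 7.49, 7.43 and 7.49 on the young arrays and 6.67, 6.55, 7.06 and 7.0 on the old arrays. Its young arrays spanned 0.10 log2, and the fall was 0.62 ± 0.11 (adjusted p 0.0198). Atp2a3, a calcium pump of the endoplasmic reticulum, fell by 0.61 ± 0.11 (adjusted p 0.0198), and 9 further probes of it were all negative. Psmg2, a chaperone of proteasome assembly, fell by 0.64 ± 0.12 and the ubiquitin ligase gene Rnf182 by 0.68 ± 0.14 (adjusted p 0.0251 and 0.0319). Tmem130, Clmp, Tspy26 and RGD1311080 made up the rest of the 15 largest falls, at -0.77, -0.73, -0.65 and -1.02.

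Many of the falls were measured on dim probes. In 15 of the 41 falls the old mean lay under the intensity minimum of 6.49, and in 2 both means did. In 4 of the 56 rises, Lipogenin, Sycp2l, Gml and Ddi2, the young mean lay under it, and in 0 both means did. For 15 called genes old AF lay under its own negative control limit of 6.59, while the limits of the other 7 cortex arrays were 5.05 to 5.66. These genes were above the limit on the other 3 old arrays and on all 4 young arrays.

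Immediate-early genes had lower means in old cortex for most members. Of 36 tested, 2 fell, Dusp1 and Plk3, 0 rose, and 8 were positive. The median was -0.22 log2, against 0.0 over all tested genes. Dusp1, the phosphatase that switches off MAP kinases, had signals of 7.27, 6.94, 7.15 and 6.89 on the young arrays and 6.4, 6.43, 6.18 and 6.23 on the old arrays. The groups were apart by 0.46 log2, and the fall was 1.67-fold (-0.74 ± 0.11 log2, adjusted p 0.00692). Plk3, a stress-responsive polo-like kinase, fell by 0.44 ± 0.10 (adjusted p 0.0485), from 7.37 to 7.54 in young to 6.90 to 7.09 in old cortex.

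The best known members did not pass. Arc, which is translated at active synapses and regulates AMPA receptors, had signals of 12.38, 11.83, 11.97 and 11.52 on the young arrays and 11.13, 11.65, 10.50 and 10.29 on the old arrays. Old AG lay above young AB, so the groups overlapped, and the difference was -1.02 ± 0.24 (adjusted p 0.0601). Fos, a subunit of the AP-1 transcription factor, differed by -0.77 ± 0.21 (adjusted p 0.0712), with young arrays at 6.98 to 7.72 and old arrays at 5.84 to 6.95. The growth factor gene Bdnf differed by -0.47 ± 0.14 (adjusted p 0.0859). Egr1 ran from 10.86 to 11.34 on the young arrays and from 10.45 to 11.52 on the old arrays (-0.15 ± 0.21, adjusted p 0.716). The list mean was -0.27 and -0.24 on old AI and AH, -0.04 on old AF and 0.11 on old AG, and 0.01 to 0.20 on the young arrays. The median of the list was -0.14 without old AI and -0.20 without young Y and Z.

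The cyclic AMP response element, bound by CREB, was searched in the promoters of these genes because Dusp1 and Plk3 are the 2 that fell. The window runs from 250 bases before to 50 bases after the start of each gene in RefSeq, assembly GRCr8, and both strands were searched for the full element TGACGTCA and for its shorter core TGACG, which the full element contains on both strands. Promoters were found for 27 of the 36 tested immediate-early genes. The windows of Dusp1, chr10:17184603-17184902 on the plus strand, and Plk3, chr5:135848851-135849150 on the minus strand, read as follows from 5′ to 3′, with matches in capitals.
Dusp1: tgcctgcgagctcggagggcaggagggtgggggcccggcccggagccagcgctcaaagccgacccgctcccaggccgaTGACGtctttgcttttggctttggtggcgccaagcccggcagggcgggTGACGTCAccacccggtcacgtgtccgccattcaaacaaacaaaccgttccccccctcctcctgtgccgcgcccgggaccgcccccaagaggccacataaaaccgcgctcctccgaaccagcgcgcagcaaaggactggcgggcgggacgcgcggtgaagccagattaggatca
Plk3: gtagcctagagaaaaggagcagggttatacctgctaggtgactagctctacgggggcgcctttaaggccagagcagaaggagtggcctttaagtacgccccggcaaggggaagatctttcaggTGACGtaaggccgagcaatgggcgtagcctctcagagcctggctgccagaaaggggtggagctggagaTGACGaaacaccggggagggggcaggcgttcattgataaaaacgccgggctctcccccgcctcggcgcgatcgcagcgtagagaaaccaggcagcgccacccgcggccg
Counted from the gene start, the Dusp1 window holds 1 full element at -124 and a further core at -172. The Plk3 window holds cores at -127 and -59 and no full element. The full element occurred in 4 of the 27 promoters, 14.8%, in Dusp1, Plk2, Jund and Ier2, and in 612 of all 33469 promoters, 1.83%. The core occurred in 17 of 27, 63%, against 21.2% of all promoters. A match describes the sequence and is not a measured binding site.

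Lists of core cell functions held few calls. Of 39 respiratory complex I genes 12 were positive and the median was -0.05. Ndufs8, an iron-sulphur subunit, fell by 0.42 ± 0.09 (adjusted p 0.0383), from 10.33 to 10.43 on the young arrays to 9.79 to 10.18 on the old arrays, while Ndufa9 differed by -0.37 ± 0.10 (adjusted p 0.0671). Of 37 genes of complexes II to V 9 were positive, the median was -0.08 and 0 were called, and Atp5f1b, the catalytic beta subunit of ATP synthase, differed by -0.67 ± 0.16 (adjusted p 0.0605). Of 49 chaperone genes 13 were positive and the median was -0.10. Ttc4 rose there, and Dnaja1, a co-chaperone of HSP70, fell by 0.34 ± 0.08 (adjusted p 0.0495). Of 36 proteasome genes 13 were positive and 0 were called, and of 70 cytosolic ribosomal protein genes 52 were positive, with a median of 0.06 and 0 called.

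Among falls singled out after their values were seen, Mtx2, of the mitochondrial outer membrane, fell by 0.40 ± 0.08 (adjusted p 0.0329), Ghitm, of the inner membrane, by 0.50 ± 0.11 (adjusted p 0.0497), and the arginine methyltransferase gene Prmt5 by 0.41 ± 0.09 (adjusted p 0.0404). Prmt5 on old AI, at 9.57, stood above the other old arrays at 9.24 to 9.29. Eif2b1, a subunit of the factor that recycles the initiation factor eIF2, fell by 0.56 ± 0.13 (adjusted p 0.0483), with old AH at 7.31 beside young Y at 7.32. Sncaip, which encodes the synuclein-binding protein synphilin-1, fell by 0.44 ± 0.10 (adjusted p 0.0417). Cntn6, a neuronal adhesion protein, fell by 0.54 ± 0.10 (adjusted p 0.0237) and the motor protein gene Myo5b by 0.58 ± 0.11 (adjusted p 0.0271). Of 46 genes of synaptic vesicles and the postsynaptic density 21 were positive, the median was -0.04 and 0 were called. App, which encodes the amyloid precursor protein, differed by -0.08 ± 0.10 (adjusted p 0.659), and Dcx, a marker of immature neurons, by -0.25 ± 0.14 (adjusted p 0.289).

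Myelin genes were higher on average in old cortex in 35 of 36 members, and the list median was 0.33 log2, but none of the 36 passed the test. Hapln2, a link protein at nodes of Ranvier, had signals of 11.83, 11.89, 12.38 and 12.37 on the young arrays and 13.08, 13.63, 12.57 and 12.67 on the old arrays, a difference of 0.88 ± 0.21 (adjusted p 0.0606). Old and young did not overlap, with young Y and Z lowest and old AG highest. Tspan2, Bcas1 and Mag differed by 0.68 ± 0.16, 0.83 ± 0.22 and 0.68 ± 0.19 (adjusted p 0.0541, 0.0654 and 0.0772), and Mbp, myelin basic protein, by 0.10 ± 0.12 (adjusted p 0.638). The list mean was -0.43 and -0.49 on young Y and Z, 0.06 and 0.14 on young AA and AB, 0.67 on old AG and 0.0 to 0.06 on the other old arrays, an order close to that of the striatal list. The median was 0.06 without young Y and Z, 0.15 without old AG and 0.45 without young AA. It was -0.01 with the meningeal list mean as a covariate and 0.22 with the striatal list mean. With the striatal covariate Hapln2 differed by 0.76, with an adjusted p of 0.0301 in limma. With the meningeal covariate it differed by 0.42 (adjusted p 0.673). Without young Y and Z the difference of Hapln2 was 0.62 (adjusted p 0.235), and without old AG it was 0.66 (adjusted p 0.142).

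Genes that respond to glucocorticoids were positive in 17 of 22 members, with a median of 0.29, and the only call among them was the fall of Dusp1. Gpd1, glycerol-3-phosphate dehydrogenase, differed by 1.24 ± 0.32 (adjusted p 0.0654), and Mt2A, a metallothionein, by 0.85 ± 0.22 (adjusted p 0.0654). Gpd1 had signals of 10.33, 9.80, 10.54 and 10.35 on the young arrays and 12.32, 11.78, 11.23 and 10.61 on the old arrays, highest on AF and lowest on AI among the old. The list mean was 0.54 on old AF, 0.12 and 0.10 on AG and AH, -0.16 on AI and -0.19 to -0.11 on the young arrays. Without old AF the list median was 0.09.

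The tissue markers were then entered into the fit. With the striatal list mean as a covariate 102 genes were called, of which 82 were among the 97. With the meningeal list mean as a covariate 0 genes were called by limma, with a smallest adjusted p of 0.205 and 882 genes at an unadjusted p under 0.05. Under that covariate all 97 genes kept the sign of their difference, 96 had an unadjusted p under 0.05, and the median ratio of their difference to the one reported was 0.97. The 97 were selected on these same arrays, so their kept signs and low unadjusted p are no separate test. The covariate itself went with age, with a list mean of 0.46 in young and -0.46 in old cortex. C3 differed by 0.98, S100a4 by 0.94, A2m by 0.91, Nmbr by -1.29 and Dusp1 by -0.80 log2 with it, at adjusted p of 0.205 to 0.449. In 4 of the 97 the difference moved by over 1.5 times. Pbld1 went from 1.08 to 0.42, Map7 from 0.67 to 0.36, RGD1311080 from -1.02 to -0.66 and Parva from -0.59 to -0.37. The median of the complement list was then 0.34, that of the immediate-early list -0.32, that of the meningeal list -0.01 and that of the striatal list -0.58. Without young Y and Z, the 2 arrays with the highest meningeal level, 26 genes were called, 17 of them among the 97, and C3, S100a4, Nmbr, Sla, Dusp1 and Klhl14 were each called.

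Single arrays decided the number of calls. Among the young arrays, the count was 72 when Y was left out, 4 for Z, 6 for AA and 14 for AB. Among the old arrays it was 8 when AF was left out, 19 for AG, 251 for AH and 738 for AI, and the 738 included all 97. The 4 genes Nmbr, Dusp1, C3 and S100a4 passed whichever of the 16 arrays was left out, while the median called gene passed in 10 of those 16 fits. Nmbr and Dusp1 had mean signals over the 16 arrays of 5.88 and 6.4, under the intensity minimum of 6.49. They were kept by their highest group mean, and the same gene set entered each of the 16 fits. The stricter filter, at 8.15, left both untested. A second probe above the intensity minimum existed for 69 called genes and had the same sign in 66, the exceptions being Ttc4, Prodh and Tbc1d5. Each probe counted is a single spot, and spots of a gene may repeat the same sequence. Agreement between them is therefore no independent measurement.

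**Figure D4:**
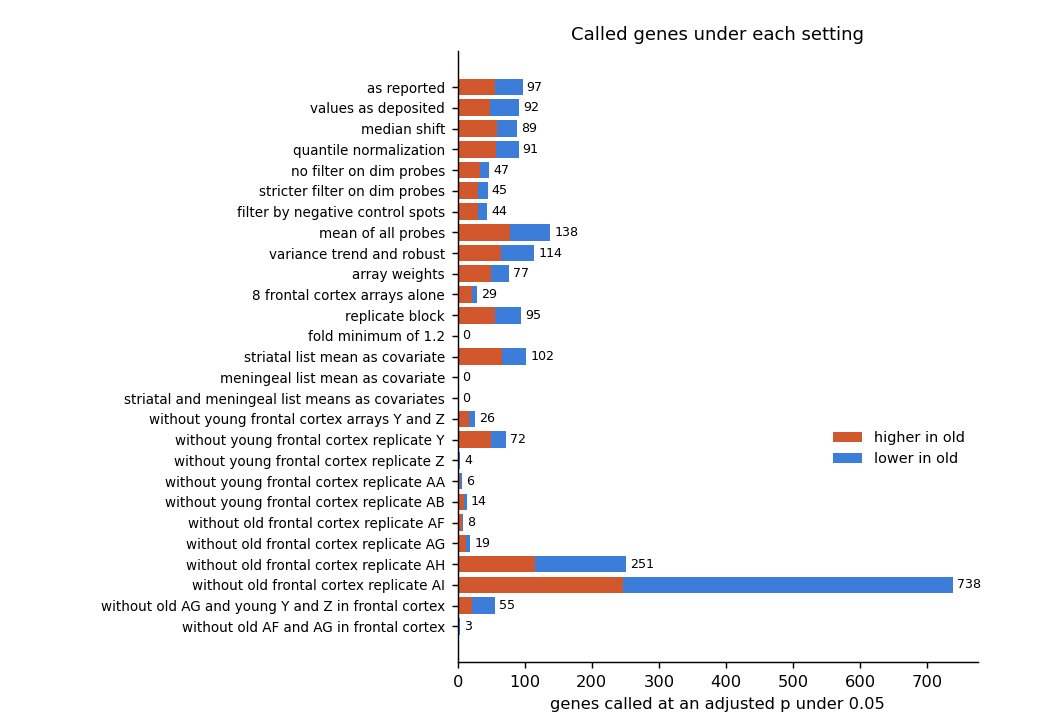
Number of genes called in old versus young frontal cortex under each processing setting, with genes higher in old in orange and lower in blue. The count was 97 as reported and 89 to 92 under other scalings, which could change little as the deposited columns already had equal quartiles. It was 0 with the meningeal list mean as a covariate or a fold minimum of 1.2. Leaving out 1 cortex array gave between 4 and 738.

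The same age comparison in hippocampus shows how far these differences were shared. Of the 97 genes called in cortex, 91 (93.8%) had the same sign in hippocampus, 51 of the 56 rises and 40 of the 41 falls, against 71.2% of all tested genes. In hippocampus 41 of them (42.3%) had an unadjusted p under 0.05, against 6.77% of all tested genes. Both regions share the same estimate of spread for each gene in this fit. A small estimate favours a call in cortex and also lowers the hippocampal p, so this share is no independent test. The median difference of the rises was 0.60 log2 in cortex and 0.25 in hippocampus, and that of the falls -0.55 and -0.18. Since the genes were selected on their cortex values, the smaller hippocampal medians are no test of a difference between regions. The region contrast itself, the cortex age difference minus the hippocampal one, called 0 of 10058 genes, 0%, in limma, with a smallest adjusted p of 0.999 and 266 genes at an unadjusted p under 0.05.

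Both regions called 3 of the genes. The rise of C3 in hippocampus was 1.5 log2 with an adjusted p of 0.000155. Those of S100a4, 1.05, and Lsp1, 0.84, both had an adjusted p of 0.0123. St8sia5 differed by -0.51 in hippocampus (adjusted p 0.188), close to its fall of 0.62 in cortex. The 10 smallest p of the region contrast were those of Sla, Spp1, Nmbr, Frzb, Nvl, Trhr2, Sycp2l, Sfxn2, Lipogenin and Akirin2. Sla differed by -1.2 in cortex and -0.02 in hippocampus, Nmbr by -1.27 and -0.17, and Frzb by -0.78 and 0.03. Mean signals over the arrays of both regions were 6.18 for Sla and 5.88 for Nmbr, under the intensity minimum of 6.49. Those of Sycp2l (5.91), Trhr2 (6.45) and Lipogenin (6.45) were also under it. At such dim signals a small hippocampal difference cannot show that a change was absent there. Spp1, which encodes osteopontin, differed by -0.90 in cortex and 0.70 in hippocampus, and the difference of these had an unadjusted p of 0.000457 and an adjusted p of 0.999. In cortex Spp1 was high on young AA alone, at 7.73 against 6.04 to 6.34 on the other young arrays and 5.40 to 5.89 on the old arrays, and without young AA it differed by -0.52.

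**Figure D5:**
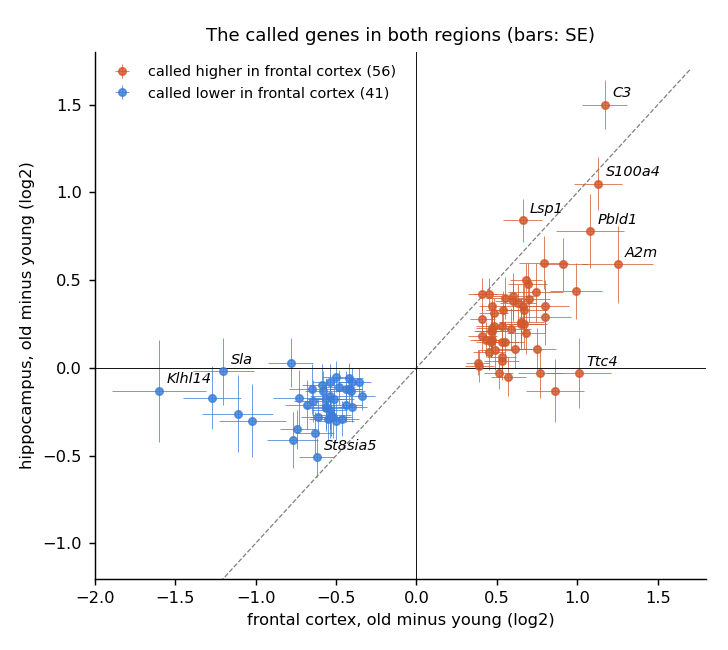
Age difference (old minus young, log2) of the 97 called genes in frontal cortex (horizontal axis) and hippocampus (vertical axis), with SE bars; orange genes were called higher and blue genes lower in cortex. C3, S100a4 and Lsp1 lie near or above the dashed line of equal difference, while Klhl14, Sla and Ttc4 lie near 0 in hippocampus. The mean signal of Sla over the arrays of both regions, 6.18, was under the intensity minimum of 6.49. Its place in hippocampus therefore cannot show that its fall was absent there.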

How the data were processed

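Total RNA of 16 frontal cortex and hippocampus samples was labelled with Cy3 and hybridised to one-colour Agilent rat arrays, and the scans were read with Agilent Feature Extraction, per the submitters' processing notes, with no version. The log2 signals analysed are those the authors deposited as 1 value column per sample. Their background correction and normalization are not stated in the sources used. Their span, between 4.94 and 17.8, puts the scale at log2. All columns have equal quartiles (median 6.77, upper 9.17). The 16 columns of the raw signal table have names that fit no sample label. That table served for spot names only, and slides could not be compared. The test written for raw signals was therefore run on these values.

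Of 62976 spots, 45904 were gene probes. A probe is thus a single spot, and whether probes of a gene repeat the same sequence was not tested. By accession, 39795 symbols were updated from RefSeq (GRCr8) and 6109 kept the array's symbol. A shift then aligned the upper quartiles of the gene probes, which lay at 9.42 to 9.44. The brightest probe stood for a gene, and a gene was tested if at least 1 group mean was above 6.49, the intensity minimum, which is the 40th percentile of probe means. This kept 10058 of 16974 genes. Negative control limits are the mean plus 3 SD of 308 negative control spots on an array. The fit of 4 group means over 16 arrays used limma 3.58.1 in R 4.3.3 (residual degrees of freedom 12, prior 4.07, median residual SD 0.165), with two-sided p adjusted by Benjamini-Hochberg over all kept genes and called under 0.05. Precision here is set by how many arrays there are.

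The gene lists, the comparison and the alternatives were chosen with earlier results of these data known. Named are the 15 largest rises and falls among called genes with separate groups, called members of the lists, the 10 smallest p of the region contrast and a preset group of genes (Apoe, App, Arc, Bdnf, C3, Cd74, Dcx, Egr1, Fos, Gfap, Igf1, Mbp, S100a4 and St8sia5). For described lists, some of the up to 4 members of smallest p and some of the defining members are named, not all of them. Others are stated as chosen after their values were seen.

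The alternatives covered scaling, filters, probe choice, variance settings, array weights, the 8 cortex arrays alone, a replicate block, a fold minimum, marker covariates and arrays left out. The main fit did not pair the regions by title code. Deviations of same-code samples correlated between the regions at -0.171 to 0.282. Dissection also adds to these deviations, so the correlations cannot show whether equal codes mark the same animal.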

Additional observations from a re-analysis of the deposited data

Results flagged for a closer look

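In 13 of 250 groups of 4 arrays, 1 array lay farther from its group than Dixon's 95% limit, and chance alone marks about 1 group in 20. Young Y stood apart for A2m, at 7.62 against 8.04 to 8.09 on the other young arrays, and for Pnisr, at 7.89 against 7.40 to 7.47. Young AA stood apart for Igf1 (9.17 against 8.73 to 8.77), Cdhr1 (12.86 against 10.44 to 10.84) and Nmb (9.11 against 7.37 to 7.59). In old cortex Ttc4 was high on AF (8.50 against 7.32 to 7.52), Shisa3 low on AG (5.29 against 5.97 to 5.99) and Igtp high on AG (12.99 against 12.83 to 12.84). On old AI Prodh was low (10.62 against 11.04 to 11.07) and Prmt5 high (9.57 against 9.24 to 9.29).

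Among list means, old AG stood apart for striatal genes (1.07 against -0.29 to -0.11) and for myelin genes (0.67 against 0.0 to 0.06). Young AB was low for interferon response genes, at -0.16 against 0.01 to 0.04.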

How the results depend on the processing

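The 97 calls became 92 on the values as deposited, 89 with a median shift, 91 with quantile normalization, 138 with the mean of all probes, 114 with a variance trend and robust settings, 77 with array weights and 102 with the striatal covariate. The deposited columns already had equal quartiles, so the median shift, quantile normalization and unshifted values could change little. With the replicate block by title code 95 genes were called. The count moved to 47 with no filter on dim probes, 45 with a stricter filter and 44 with a filter by negative control spots, with 16974, 6790 and 14086 genes tested, and to 29 with the 8 cortex arrays alone, of which 18 were among the 97. It was 0 with a fold minimum of 1.2 (smallest adjusted p 0.058), 0 with the meningeal covariate and 0 with both covariates (smallest adjusted p 0.191). It was 26 without young Y and Z. Of 2 settings chosen after seeing the data, leaving out old AG with young Y and Z gave 55 calls and leaving out old AF and AG gave 3. Leaving out 1 array of either region gave 4 to 738 calls, and 0 to 1 for the region contrast. Every other setting gave 0 for the region contrast. Of the single genes named, Egr1 turned to 0.03 without old AI and Apoe to -0.03 without old AH, in ranges of -0.33 to 0.03 and -0.03 to 0.07 with 1 array left out. Drd2 turned to -0.91 with the meningeal covariate, -0.01 with both, -0.73 without young Y and Z and -1.25 without those and old AG. The causes were not tested.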

Other observations

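The largest differences in the table were not calls. Each of the 12 largest among tested genes rested on 1 cortex array that stood over 3 log2 beyond the other 7, and 0 of the 12 were called. In all 23 genes had such an array, 10 of them on old AF, 9 on young AB, 2 on young Z and 1 each on young AA and old AG, always brighter than the rest. Gramd1c read 17.77 on young AB and at most 5.45 on the other arrays, and the olfactory receptor gene Or4a66c read 14.13 on old AF and at most 5.15 elsewhere.

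S100a8 and S100a9, which encode the calprotectin subunits of neutrophils and monocytes, moved together and were chosen here after their values were seen. S100a8 read 6.43, 5.93, 6.26 and 6.24 on young Y, Z, AA and AB and 9.36, 8.26, 7.87 and 6.46 on old AF, AG, AH and AI. S100a9 read 7.17, 6.92, 7.12 and 7.24 on the young arrays and 10.02, 9.09, 8.67 and 7.42 on the old arrays. Both were highest on old AF, and on all 4 old arrays they lay above every young array. The erythrocyte list mean was 1.26 on old AF, -0.94 on AG, 0.11 on AH and -0.13 on AI. The differences of 1.78 ± 0.52 and 1.7 ± 0.48 log2 did not pass (adjusted p 0.081 and 0.0774 in limma), and hippocampus gave 1.47 and 1.60. The part of blood cells left in the tissue was not tested.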
